A study of Drosophila melanogaster with 32 samples.

Results

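Secretion and membrane traffic genes are the genes whose products move proteins and lipids between the endoplasmic reticulum (ER), the Golgi, the cell surface and the endosomes. They were taken by name from the deposited lists of edited sites: names that begin with Sec, Rab, Vps, Syx or Exo and then a digit, names that end in COP, and Sar1, Chc, Rme-8, KdelR, shi and Hrs. This gave 74 of the 5181 genes named in the lists, with 540 of the 33835 edited sites. By the known roles of their products, 39 genes were put on the secretory side, 29 on the endocytic side and 6 on neither. The rule itself used names only. A gene could enter it only with a listed site, so the reads and editing that listing needs limited which genes were members.

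The study expressed RNA-binding proteins fused to the deaminase domain of ADAR, an RNA-editing enzyme, in S2 cells, a Drosophila line of embryonic origin that resembles hemocytes. Such a fusion converts adenosines near its binding places to inosine, which is read as guanosine, so edited sites mark the transcripts it meets. Of 32 samples in the series, 7 were analysed here. Hrp48 HyperTRIBE (2 libraries) joins Hrp48 to a catalytic domain with the E488Q change, and Hrp48 TRIBE (2 libraries) joins it to the domain without that change. FMRP HyperTRIBE (1 library, its replicate 1) joins FMRP to the changed domain, and the deaminase alone (2 libraries) is the changed domain with no RNA-binding protein. All 7 came from cells that were transfected transiently, induced with copper sulfate and sorted by fluorescence, so the fusions were expressed from introduced genes beside the cells' own Hrp48 and FMRP. Nothing in the labels ties replicates to separate cultures, and their spread may be technical. FMRP HyperTRIBE has no replicate here.

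New secretory proteins enter the ER through the Sec61 channel, leave it in vesicles with a COPII coat, and are returned to it in vesicles with a COPI coat. Rab proteins are small GTPases that mark each membrane and recruit tethers, SNARE proteins (the syntaxins, Syx, among them) fuse vesicles with their target, and the exocyst tethers vesicles at the cell surface. On the way in, clathrin and dynamin form and release vesicles, ESCRT proteins sort cargo into endosomes, retromer recycles it, and the HOPS tether brings it to lysosomes. S2 cells take up particles and secrete matrix proteins, so both routes are in use there. Hrp48 is an hnRNP protein that acts in splicing, localisation and translation of mRNA, and FMRP is a regulator of translation.

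A site was listed only with at least 20 reads and at least 10% of them edited, as tested on the files. A site or gene that is not listed may therefore have fallen short in reads or in editing, and read numbers at sites were not taken as expression. Total sites were 19706 and 22803 with Hrp48 HyperTRIBE, 1252 and 1400 in Hrp48 TRIBE, 4694 with FMRP HyperTRIBE, and 13 and 459 with the deaminase alone. The file headers put both Hrp48 libraries of replicate 1 in one library set and those of replicate 2 in another, and give FMRP and each deaminase-alone library a set of its own. Construct and set therefore cannot be told apart outside the Hrp48 comparison. Of 20 hemocyte markers, 11 had a listed site, while 9 including Hml and Pxn had none, and of 10 neuronal markers only brp was listed, with 1 site. The line label could thus be checked only in part.

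Traffic genes carried many Hrp48 HyperTRIBE sites and fewer of every other construct. They held 325 and 381 sites in the Hrp48 HyperTRIBE libraries and 29 and 25 in the Hrp48 TRIBE libraries. FMRP HyperTRIBE listed 110, and the deaminase alone 0 and 8. The Hrp48 libraries did not overlap: Hrp48 HyperTRIBE averaged 353 ± 39.6 sites and Hrp48 TRIBE 27 ± 2.83 (SD, n = 2 each), a 13.1-fold difference. Within the library sets the fold was 11.2 for replicate 1 and 15.2 for replicate 2. The fold over all other genes was 16.1, and the order of these folds turned with the site minimum. With at least 50 reads the fold was 39.1 for traffic genes and 27.6 for all other genes. With at least 20% edited it was 22.8 and 20.002. Hrp48 TRIBE then listed only 3 and 5 traffic gene sites with at least 50 reads, and 6 and 5 with at least 20% edited. The turned order thus rests on few sites. A two-sided exact permutation test of 2 libraries against 2 cannot give a p below 0.3333.

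By gene, 64 and 70 of the 74 had a site with Hrp48 HyperTRIBE (86.5% and 94.6%), against 77.8% and 91.8% of all other genes. Each Hrp48 TRIBE library listed 19 (25.7%), against 14.2% and 17.5% of all other genes. FMRP HyperTRIBE listed 31 (41.9%, against 38.7% of all genes), and the deaminase alone 0 and 5. More sites in each Hrp48 HyperTRIBE library than in either Hrp48 TRIBE library were listed for 58 of the 74 (78.4%), against a background of 67.6% of all genes listed with Hrp48. With only sites of at least 50 reads the number was 33. The share over all genes was not taken at that minimum, so this drop cannot be set against a background. A gene entered the 74 only by being listed, most often with Hrp48 HyperTRIBE, so the count of 58 was partly set by entry. The background genes entered in the same way. A site shared by both Hrp48 HyperTRIBE libraries was present in 57 of 74 traffic genes (77.0%), against 62.2% of all genes. A site in at least 1 Hrp48 TRIBE library was present in 29 (39.2%), against 25.1% of all genes, and 9 (12.2%) were listed in both Hrp48 TRIBE libraries, against 6.9% of genes listed with Hrp48. The sites of traffic genes also had more reads: a median of 40 and 49 reads with Hrp48 HyperTRIBE, against 33 and 36 for all other genes. The part of read number in these shares was not tested.

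**Figure D1:**
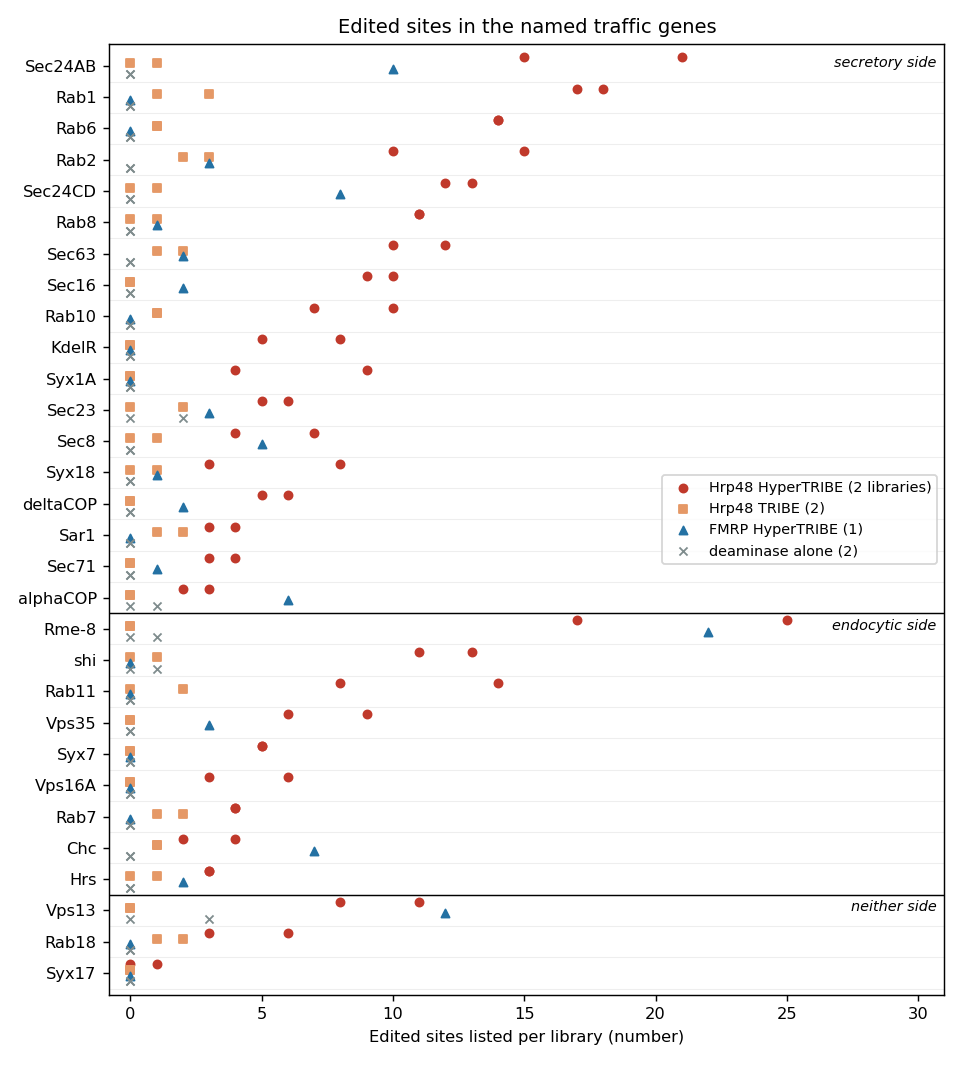
Edited sites listed in each library (horizontal axis, number of sites) for 30 named traffic genes, grouped as secretory, endocytic and neither. Red circles are the 2 Hrp48 HyperTRIBE libraries, orange squares the 2 Hrp48 TRIBE libraries, blue triangles the FMRP HyperTRIBE library and grey crosses the 2 deaminase-alone libraries. Rme-8 reaches 25 sites and Sec24AB 21 with Hrp48 HyperTRIBE, while no gene exceeds 3 with Hrp48 TRIBE, and FMRP sites stand above both Hrp48 HyperTRIBE values for alphaCOP, Chc and Vps13 alone.

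Sites recurred between the Hrp48 HyperTRIBE replicates. Of the traffic gene sites, 221 were listed in both libraries, 68.0% (Wilson 95% interval 62.7 to 72.8%) of those of replicate 1 and 58.0% (53.0 to 62.9%) of those of replicate 2. For all other genes the shares were 54.8% and 47.4%. With Hrp48 TRIBE, 7 traffic gene sites were listed in both libraries, 24.1% and 28.0% of each library's sites, with 26.3% and 23.4% for all other genes. These intervals cover counting error only and treat sites as independent, although sites cluster in genes. Of the 540 sites, 539 were exonic, 245 were listed in at least 2 libraries and 75 in at least 3. All 9 Syx1A sites also lie on 4EHP, and 1 Sec8 site on CG2082, so the reads of these 10 sites cannot be assigned to 1 gene.

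Among the ER translocation genes, Sec63, which works with the Sec61 channel during import, had the most sites. It was listed with 10 and 12 Hrp48 HyperTRIBE sites, 1 and 2 Hrp48 TRIBE sites and 2 FMRP HyperTRIBE sites. The Hrp48 HyperTRIBE libraries shared 8 sites. The most edited lay at chr3L:7356694 (dm3, + strand, exon), with 31 of 53 reads (58.5%) and 27 of 65 (41.5%) edited with Hrp48 HyperTRIBE. Hrp48 TRIBE edited 4 of 25 reads (16%) and 5 of 39 (12.8%) there, and FMRP HyperTRIBE 19 of 52 (36.5%). Both Hrp48 HyperTRIBE values stood above both Hrp48 TRIBE values, with FMRP between them. Sec61alpha, the channel subunit itself, had 3 and 4 sites with Hrp48 HyperTRIBE, 2 and 0 in Hrp48 TRIBE and 1 with FMRP HyperTRIBE. Sec61beta and Sec61gamma, the small subunits, had at most 1 site in any library.

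The 7 COPII genes had 56 and 49 sites with Hrp48 HyperTRIBE, 4 and 3 in Hrp48 TRIBE and 26 with FMRP HyperTRIBE. Sec24AB and Sec24CD, the cargo-binding subunits of the coat, held most of the Hrp48 HyperTRIBE and FMRP HyperTRIBE sites. Sec24AB had 21 and 15 sites with Hrp48 HyperTRIBE, 0 and 1 in Hrp48 TRIBE and 10 with FMRP HyperTRIBE. Sec24CD had 12 and 13, 0 and 1, and 8 in the same order of constructs. Sec16, the scaffold of ER exit sites, had 9 and 10 with Hrp48 HyperTRIBE, none in Hrp48 TRIBE and 2 with FMRP HyperTRIBE. Both Hrp48 HyperTRIBE libraries were above both Hrp48 TRIBE libraries in each of these genes.

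At chr2R:5763996 (dm3, - strand, exon), the most 3′ site listed in Sec24AB, 44.7% of 38 reads and 55.3% of 38 were edited with Hrp48 HyperTRIBE. At chr2R:5764172 the values were 48.8% of 43 reads and 48.6% of 37. FMRP HyperTRIBE edited 20% of 25 reads at the first and 20% of 40 at the second, below both Hrp48 HyperTRIBE libraries. Sec23, the partner of Sec24 that stimulates the GTPase Sar1, had 5 and 6 sites with Hrp48 HyperTRIBE, 2 and 0 in Hrp48 TRIBE, 3 with FMRP HyperTRIBE, and 0 and 2 with the deaminase alone. Sar1, which starts coat assembly, had 4 and 3 sites with Hrp48 HyperTRIBE and 2 and 1 in Hrp48 TRIBE, and was not listed with FMRP. In Sar1 the Hrp48 constructs were thus nearer to each other than in Sec24AB. Sec31, of the outer coat, had 4 and 2 with Hrp48 HyperTRIBE and 3 with FMRP HyperTRIBE, and Sec13 had 1 site in 1 library.

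The 7 COPI genes, the coat of the return route, had 18 and 24 sites with Hrp48 HyperTRIBE, 2 and 0 in Hrp48 TRIBE and 10 with FMRP HyperTRIBE. deltaCOP had 5 and 6 with Hrp48 HyperTRIBE, of which 5 were shared, none in Hrp48 TRIBE and 2 with FMRP HyperTRIBE. alphaCOP showed another order, with 6 sites with FMRP HyperTRIBE and 2 and 3 with Hrp48 HyperTRIBE. At chr3L:1642316 (dm3, - strand, exon), 28.9% of 83 reads were edited in alphaCOP with FMRP HyperTRIBE, and 14.7% of 102 with Hrp48 HyperTRIBE replicate 2. Hrp48 HyperTRIBE replicate 1 did not list that site. betaCOP, beta'COP, gammaCOP, epsilonCOP and zetaCOP, the remaining subunits, had 0 to 7 sites in each Hrp48 HyperTRIBE library. KdelR, the receptor that returns escaped ER proteins, had 8 and 5 sites with Hrp48 HyperTRIBE and none with any other construct. At chr2L:10427763 (dm3, + strand, exon) 20.2% of 99 and 17.7% of 113 reads were edited with Hrp48 HyperTRIBE, the deepest of its sites, while 4 of the 8 sites of replicate 1 had 20 to 34 reads. Its read number in the other libraries is not known.

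The ER and Golgi Rab genes were among the most heavily listed. Rab1, required for transport from the ER to the Golgi, had 18 and 17 sites with Hrp48 HyperTRIBE and 3 and 1 in Hrp48 TRIBE. Rab6, which acts at the Golgi, had 14 and 14 with Hrp48 HyperTRIBE and 1 and 1 with Hrp48 TRIBE. Neither gene was listed with FMRP HyperTRIBE or the deaminase alone. Rab2, also of the Golgi and of lysosome delivery, had 10 and 15 with Hrp48 HyperTRIBE, 2 and 3 in Hrp48 TRIBE and 3 with FMRP HyperTRIBE. In Rab1, the most edited site in both Hrp48 HyperTRIBE libraries lay at chr3R:17092197 (dm3, - strand, exon), with 41.1% of 56 reads and 40.4% of 57 edited. Other shared Rab1 sites differed more or less between replicates, with 12.5% in both at chr3R:17092483 and 26.9% and 11.9% at chr3R:17091998. Of 22 Rab1 sites listed with Hrp48 HyperTRIBE, 13 were in both replicates.

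Rab30, another Golgi Rab, was unlike Rab1, Rab2 and Rab6. It had 2 and 13 sites with Hrp48 HyperTRIBE and 0 and 3 in Hrp48 TRIBE, and no site was shared by replicates of either construct. At chr2L:7031192 (dm3, - strand, exon), 69.2% of 26 reads were edited with Hrp48 HyperTRIBE replicate 2 and 22.7% of 22 with Hrp48 TRIBE replicate 2. All 3 Hrp48 TRIBE sites were also in Hrp48 HyperTRIBE replicate 2, which belongs to the same library set. These 3 sites had 22 to 29 reads, close to the listing minimum of 20, and the part of read number in the difference between sets was not tested.

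Of the SNAREs of the early secretory route, Syx18, of the ER, held the strongest shared editing. At chr3R:20449651 (dm3, - strand, exon), 52.2% of 23 reads and 66.7% of 36 were edited with Hrp48 HyperTRIBE. This was the 1 traffic gene site of 221 shared by the replicates that reached 50% in both, a share of 0.452%, against 1.95% of shared sites of all other genes. Syx18 had 3 and 8 sites with Hrp48 HyperTRIBE, 0 and 1 in Hrp48 TRIBE and 1 with FMRP HyperTRIBE. Sec22, a SNARE of ER to Golgi transport, had 4 and 5 with Hrp48 HyperTRIBE, and Syx5, the Golgi syntaxin, 2 and 2. Sec71, an exchange factor for Golgi ARF proteins, had 3 and 4 with Hrp48 HyperTRIBE, none in Hrp48 TRIBE and 1 with FMRP HyperTRIBE.

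The exocyst differed between the Hrp48 HyperTRIBE replicates. Its 8 genes had 14 and 30 sites with Hrp48 HyperTRIBE, 1 and 0 in Hrp48 TRIBE and 12 with FMRP HyperTRIBE. Sec5, Sec10, Sec15 and Exo70 were listed with Hrp48 HyperTRIBE in replicate 2 only, with 2 to 4 sites each. Sec8 had the most shared sites of the complex, with 7 and 4 sites with Hrp48 HyperTRIBE, 1 and 0 in Hrp48 TRIBE and 5 with FMRP HyperTRIBE. At chr3R:1583504 (dm3, - strand, exon) in Sec8, 45.5% of 33 reads were edited with FMRP HyperTRIBE, against 20.7% of 29 and 40.8% of 49 with Hrp48 HyperTRIBE. Sec3, Sec6 and Exo84 had 1 to 8 in each Hrp48 HyperTRIBE library and 1 or 2 with FMRP HyperTRIBE. Rab8 and Rab10, which act in delivery to the plasma membrane, had 11 and 11 and 10 and 7 sites with Hrp48 HyperTRIBE, against 0 and 1 and 1 and 1 with Hrp48 TRIBE. FMRP HyperTRIBE listed 1 site in Rab8 and none in Rab10. Rab3-GAP, a regulator of Rab3, had 3 sites in Hrp48 HyperTRIBE replicate 2 only. Syx1A, the plasma membrane syntaxin, had 9 and 4 with Hrp48 HyperTRIBE and none elsewhere, all of them on 4EHP as well.

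On the endocytic side, Rme-8, a cofactor of the Hsc70 chaperone on endosomes, had the most sites of any traffic gene. It had 17 and 25 sites with Hrp48 HyperTRIBE, none in Hrp48 TRIBE, 22 with FMRP HyperTRIBE and 0 and 1 with the deaminase alone. Chc, the clathrin heavy chain, had 2 and 4 sites with Hrp48 HyperTRIBE, 1 and 1 in Hrp48 TRIBE and 7 with FMRP HyperTRIBE. shi, the fly dynamin that severs vesicles from the membrane, had 11 and 13 with Hrp48 HyperTRIBE, 0 and 1 with Hrp48 TRIBE, none with FMRP and 0 and 1 with the deaminase alone. The 3 genes of the same uptake route thus had FMRP sites in number (Rme-8, Chc) or not at all (shi). At chrX:15800325 (dm3, + strand, exon) in shi, 67.7% of 31 reads were edited in Hrp48 HyperTRIBE replicate 2, and replicate 1 did not list the site.

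The endosomal Rab genes were listed with Hrp48 constructs and hardly with FMRP. Rab11, of recycling endosomes, had 8 and 14 sites with Hrp48 HyperTRIBE and 2 and 0 in Hrp48 TRIBE. Rab5, of early endosomes, had 6 and 4 with Hrp48 HyperTRIBE and 0 and 2 with Hrp48 TRIBE, and Rab7, of late endosomes, 4 and 4 with Hrp48 HyperTRIBE and 2 and 1 with Hrp48 TRIBE. All 8 Rab11 sites of Hrp48 HyperTRIBE replicate 1 and all 4 Rab7 sites recurred in replicate 2. At chr3R:16941128 (dm3, + strand, exon) in Rab11, 26.7% of 105 reads and 22.3% of 112 were edited with Hrp48 HyperTRIBE. None of Rab11, Rab5 and Rab7 was listed with FMRP HyperTRIBE. Rab35, of recycling, was, with 2 sites, and had 4 and 4 with Hrp48 HyperTRIBE. Rab4, Rab9 and Rab14 had 0 to 5 in each Hrp48 HyperTRIBE library and none with FMRP HyperTRIBE.

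The 8 ESCRT genes had 16 and 14 sites with Hrp48 HyperTRIBE, 2 and 2 in Hrp48 TRIBE and 3 with FMRP HyperTRIBE. Hrs, which binds ubiquitinated cargo, had 3 and 3 with Hrp48 HyperTRIBE, 1 and 0 in Hrp48 TRIBE and 2 with FMRP HyperTRIBE. At chr2L:2743074 (dm3, + strand, exon) in Hrs, 54.3% of 35 reads and 33.3% of 42 were edited with Hrp48 HyperTRIBE, 13.6% of 22 with Hrp48 TRIBE replicate 1 and 33.3% of 33 with FMRP HyperTRIBE. The other ESCRT genes, Vps2, Vps4, Vps20, Vps24, Vps25, Vps28 and Vps37B, had 0 to 3 in each Hrp48 HyperTRIBE library. Vps35, the core subunit of retromer, had 6 and 9 with Hrp48 HyperTRIBE and 3 with FMRP HyperTRIBE, and Vps26, its partner, 5 and 6, and 1. At chr2R:18076899 (dm3, + strand, exon) in Vps35, 41.7% of 24 reads and 51.2% of 43 were edited with Hrp48 HyperTRIBE. Vps29, also of retromer, had 3 and 1 sites with none shared. Vps16A, of the HOPS tether, had 6 and 3, while Vps16B and Vps33B had 1 site each in replicate 2.

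Syx7, a syntaxin of endosomes, had 5 and 5 sites with Hrp48 HyperTRIBE, with 56.8% of 37 reads and 32.0% of 50 edited at chr3L:21440988 (dm3, + strand, exon). Syx6, of endosomes and the Golgi, had 3 and 6, with 60% of 25 reads and 40.6% of 32 edited at chr2R:7108926 (dm3, + strand, exon). Syx8, Syx13 and Syx16, also of endosomes, had 1 to 7 in each Hrp48 HyperTRIBE library. Of the 6 genes on neither side, Vps13, a lipid transfer protein, had 8 and 11 with Hrp48 HyperTRIBE, none in Hrp48 TRIBE, 12 with FMRP HyperTRIBE and 0 and 3 with the deaminase alone. Rab18, of the ER and lipid droplets, had 6 and 3 with Hrp48 HyperTRIBE and 2 and 1 with Hrp48 TRIBE. Rab19, Rab39 and Rab40 had 0 to 4 in each Hrp48 HyperTRIBE library and none with any other construct. Syx17, of autophagosomes, had 1 site in 1 library.

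Editing with the E488Q change was compared with editing without it at the sites listed in all 4 Hrp48 libraries, on log2((edited + 0.5)/(unedited + 0.5)) with limma over 298 sites and Benjamini-Hochberg adjustment at 0.05. Of these sites, 7 lay in traffic genes, 1 each in Sec63, Chc, Rab7, Rab2, Rab18, Rab1 and Sar1. Editing was higher with Hrp48 HyperTRIBE at 2 of the 7 (28.6%) and lower at none, where 27.9% of the 298 sites were called higher and 0.0% lower. The median difference was 0.85 log2 odds over the 7 sites and 0.86 over all 298. A difference of 1 on this scale doubles the ratio of edited to unedited reads. The share of called traffic gene sites is thus close to the background.

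The Sec63 site given above was called, with a difference of 2.45 ± 0.58 log2 odds (SE, limma adjusted p = 0.00084). At chrX:15725411 (dm3, - strand, exon) in Chc, 28 of 68 reads (41.2%) and 32 of 76 (42.1%) were edited with Hrp48 HyperTRIBE, against 5 of 36 (13.9%) and 8 of 57 (14.04%) with Hrp48 TRIBE. It was called as well, with a difference of 2.05 ± 0.58 (SE, limma adjusted p = 0.00465). At both sites every Hrp48 HyperTRIBE value stood above every Hrp48 TRIBE value. Neither call held without Hrp48 HyperTRIBE replicate 1 or without replicate 2, while the differences at Sec63 (1.97 and 2.94) and Chc (2.08 and 2.02) kept their sign. The standard error was 0.58 at every site because the fit pooled the spread over all 298, so it gave no weight to read number, and a shift common to a library is not covered.

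In Rab7, 30.9% and 33.3% were edited with Hrp48 HyperTRIBE, against 20.6% and 16.9% with Hrp48 TRIBE (limma adjusted p = 0.20). In Rab2 the values were 35.2% and 45.1% with Hrp48 HyperTRIBE, against 29.7% and 23.6% with Hrp48 TRIBE (limma adjusted p = 0.273). In Rab18 they were 20.4% and 24.3%, against 16.1% and 15.4% (limma adjusted p = 0.509). The libraries of the constructs did not overlap at these sites, yet the differences did not pass the test. Without Hrp48 TRIBE replicate 1, Rab7 passed (limma adjusted p = 0.0241), as did Rab2 (limma adjusted p = 0.0463), but without Hrp48 TRIBE replicate 2 neither did (limma adjusted p = 0.125 and limma adjusted p = 0.277). These fits leave 1 Hrp48 TRIBE library, which is assumed to vary like the Hrp48 HyperTRIBE libraries.

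The sites of Rab1 and Sar1 had the other order. At chr3R:17094673 (dm3, - strand, exon) in Rab1, 25.8% and 18.6% were edited with Hrp48 HyperTRIBE, against 27.5% and 28.8% with Hrp48 TRIBE, a difference of -0.47 log2 odds (limma adjusted p = 0.586). At chr3R:18186026 (dm3, + strand, exon) in Sar1, 19.7% and 16.9% were edited with Hrp48 HyperTRIBE, against 32.4% and 26.2% with Hrp48 TRIBE, a difference of -0.87 (limma adjusted p = 0.26). Both Hrp48 HyperTRIBE values were below both Hrp48 TRIBE values in 2 of the 7 sites, where 4.7% of the 298 sites had this order, and above them in 5 of 7, where the background was 60.7%. Neither lower site passed the test. The neighbouring base of Sar1, at chr3R:18186025, had 13.6% and 16.7% with Hrp48 HyperTRIBE and 14.7% in Hrp48 TRIBE replicate 1, and was not listed in Hrp48 TRIBE replicate 2.

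**Figure D2:**
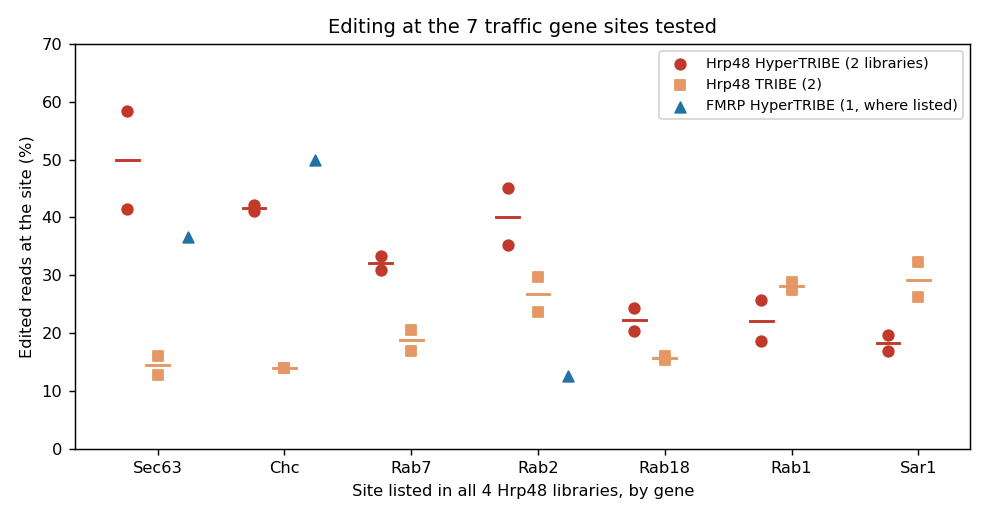
Percent of reads edited (vertical axis) at the 7 traffic gene sites listed in all 4 Hrp48 libraries, ordered by the difference between the constructs. Circles are the 2 Hrp48 HyperTRIBE libraries, squares the 2 Hrp48 TRIBE libraries, each with a line at the mean, and triangles the FMRP HyperTRIBE library where it lists the site; Sec63 and Chc stand at 41.2% or more with Hrp48 HyperTRIBE and at 16% or less with Hrp48 TRIBE, and Rab1 and Sar1 are lower with Hrp48 HyperTRIBE.

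Secretory genes had more sites per listed gene than endocytic genes with Hrp48 HyperTRIBE, 5.94 and 6.19 against 4.19 and 4.75. All other genes had 5.06 and 4.96, between the sides in both libraries. The difference between the sides averaged 1.59 sites per gene. Hrp48 TRIBE listed 1.5 and 1.45 in the 2 libraries on the secretory side and 1.5 and 1.14 on the endocytic side. With FMRP HyperTRIBE the order was the other way, with 58 sites in 21 secretory genes (2.76 per gene) and 40 sites in 9 endocytic genes (4.44 per gene). Rme-8 alone held 22 of those 40. Without it the endocytic side had 2.25 sites per gene with FMRP HyperTRIBE and 3.68 and 4.0 with Hrp48 HyperTRIBE. These values were below the secretory side in all 3 libraries, but no gene was left out on that side. Sec24AB and Sec24CD held 10 and 8 of its 58 FMRP sites. The genes of a side are not replicates, so none of these differences carries a p.

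The counts per gene followed a few members. Genes with a site shared by the Hrp48 HyperTRIBE replicates had a median of 3 shared sites on the secretory side and 3 on the endocytic side, and 2 among all other genes, while the maximum was 13 on either side. With Hrp48 HyperTRIBE, secretory genes were listed in 33 and 37 of 39 cases (84.6% and 94.9%) and endocytic genes in 26 and 28 of 29 (89.7% and 96.6%). Of all other genes, 77.8% and 91.8% were listed. Sites on the secretory side lay closer together: 66.8% and 67.2% had another site of the same gene within 100 bases with Hrp48 HyperTRIBE, against 54.1% and 54.9% on the endocytic side. Over all traffic genes the shares were 61.2% in either library, against 55.9% and 55.1% of all other genes. The secretory side also had more sites per listed gene, and the part of site number in the spacing was not tested.

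Median editing of listed sites was lower on the secretory side with Hrp48 HyperTRIBE, 15% and 14.4% against 18.2% and 16.2%. Median reads were higher there, 48 and 52 against 37 and 45. With only sites of at least 50 reads, the mean difference in median editing was -0.42 percentage points, against -2.49 with all listed sites. The size of the difference in editing thus depended on the read minimum. Sites shared by both replicates had a median of 20% and 17.8% on the secretory side and 20% and 20.6% on the endocytic side.

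**Figure D3:**
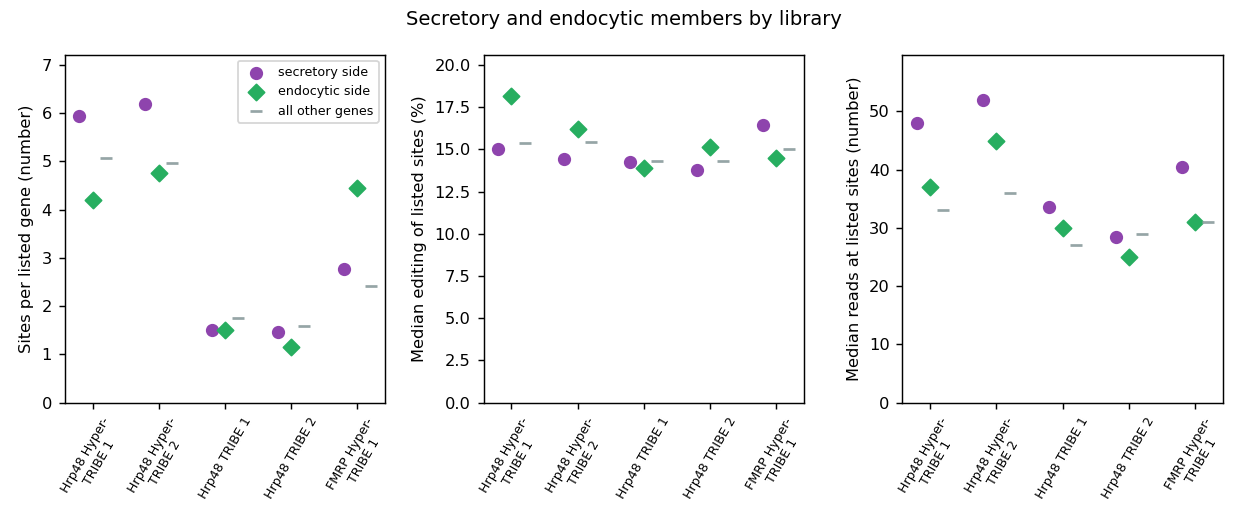
Sites per listed gene, median editing (%) and median reads of listed sites in 5 libraries, for secretory genes (circles), endocytic genes (diamonds) and all other genes (bars). Secretory genes lie above endocytic genes in sites per gene and reads in both Hrp48 HyperTRIBE libraries and below them in median editing; each point is 1 library, with no error bar.

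FMRP HyperTRIBE was set beside Hrp48 HyperTRIBE to see which traffic transcripts both fusions edited. Of the 110 traffic gene sites listed with FMRP, 57 (51.8%, Wilson 95% interval 42.6 to 60.9%) were also in both Hrp48 HyperTRIBE libraries, against 46.9% of the FMRP sites in all other genes. The 57 were 25.8% of the 221 sites shared by the Hrp48 HyperTRIBE replicates, against 20.2% of the 10630 shared sites in all other genes. Of the 57 genes with such a shared site, 28 (49.1%) were listed with FMRP, against a background of 49.9%. Traffic genes as a whole were thus listed with FMRP about as often as other Hrp48 HyperTRIBE genes. They made up 2.34% (1.95 to 2.82%) of the FMRP HyperTRIBE sites. With Hrp48 HyperTRIBE they made up 1.65% (1.48 to 1.84%) and 1.67% (1.51 to 1.85%). With Hrp48 TRIBE they made up 2.32% (1.62 to 3.31%) and 1.79% (1.21 to 2.62%). Rme-8 held 22 and Vps13 12 of the 110 FMRP sites, so the FMRP share leans on few genes. With Hrp48 HyperTRIBE Rme-8 held 17 and 25 sites and Vps13 8 and 11. These intervals treat sites as independent, although sites cluster in genes.

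The gene families differed in this. FMRP HyperTRIBE listed 6 sites in 3 of the 17 Rab genes (Rab2, Rab8 and Rab35), a share of 17.6% of genes where the background was 38.7%. In the same 17 genes Hrp48 HyperTRIBE listed 106 and 119 sites. In the other 57 traffic genes it listed 104 sites, where Hrp48 HyperTRIBE listed 219 and 262. FMRP sites were thus 5.33% of the mean Hrp48 HyperTRIBE number in Rab genes and 43.2% in the other traffic genes, against 21.9% in all other genes of the lists. The share was 49.5% in the COPII coat, 47.6% in the COPI coat, 20% in the ESCRT genes and 9.38% in the syntaxins. It was 54.5% in the exocyst, where 12 FMRP sites stood against 14 and 30 with Hrp48 HyperTRIBE. The grouping into families was chosen after the values were seen, so it carries no test.

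With Hrp48 TRIBE the Rab genes stood on the other end. They held 15 of 29 and 15 of 25 of the traffic gene sites, and 12 of 17 were listed in at least 1 Hrp48 TRIBE library, a share of 70.6%, against 29.8% of the other 57 traffic genes and 25.1% of all genes. Listed Rab sites had medians of 50 and 57 reads with Hrp48 HyperTRIBE, 31 and 25 in Hrp48 TRIBE and 41.5 with FMRP HyperTRIBE. In the other traffic genes the medians were 38 and 43.5, 30.5 and 33, and 34. Reads at Rab sites that FMRP HyperTRIBE did not list are not known, so the part of read number was not tested. Of 16 traffic genes with at least 5 shared Hrp48 HyperTRIBE sites, 6 had no FMRP site (Rab1, Rab6, Rab11, shi, Rab10 and KdelR), a share of 37.5% where the background was 30.8%.

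**Figure D4:**
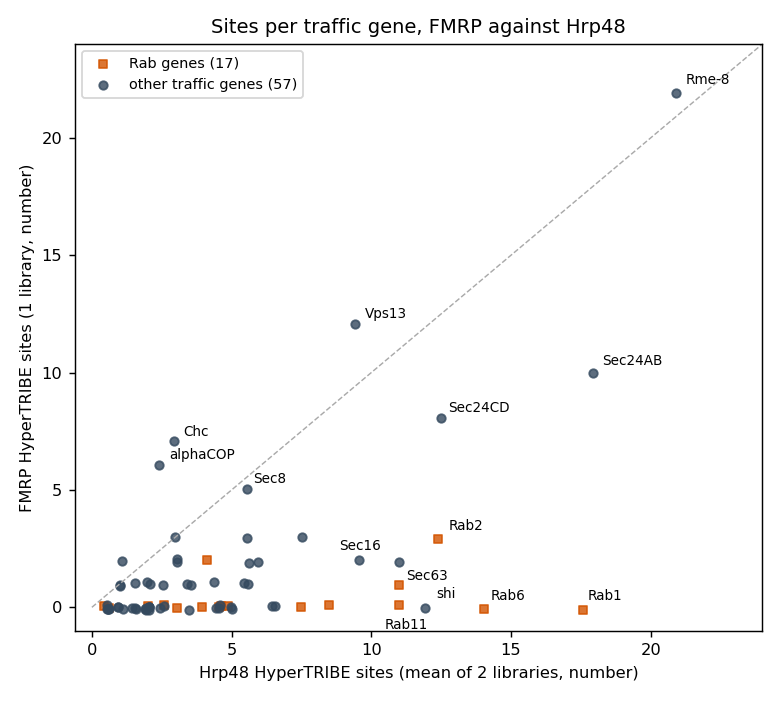
Sites in the FMRP HyperTRIBE library (vertical axis) against the mean number in the 2 Hrp48 HyperTRIBE libraries (horizontal axis) for each of the 74 traffic genes, with small offsets to part equal points. Squares are the 17 Rab genes and circles the other 57; the dashed line marks equal numbers, and Rab1 and Rab6 lie at 0 FMRP sites while Rme-8, Vps13, Chc and alphaCOP lie above the line.

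More FMRP HyperTRIBE sites than in either Hrp48 HyperTRIBE library were listed for 3 of 31 traffic genes, Chc, alphaCOP and Vps13, against 8.34% of all genes listed with FMRP. Chc had 5 FMRP sites that neither Hrp48 HyperTRIBE library listed, spread between the 2 sites that all 3 libraries shared. At one of these, chrX:15723335 (dm3, - strand, exon), 31.6% of 76 reads were edited with FMRP HyperTRIBE. At the shared site of the test, chrX:15725411, 50% of 70 reads were edited with FMRP HyperTRIBE, against 41.2% and 42.1% with Hrp48 HyperTRIBE. Rme-8 had 12 FMRP sites listed in neither Hrp48 HyperTRIBE library and 9 listed in both.

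Within the 57 sites common to the 3 libraries, editing with FMRP was above both Hrp48 HyperTRIBE values at 16 (28.1%) and below both at 28 (49.1%), where the background over all genes was 19.8% and 60.5%. Rme-8 had 5 sites above and 2 below, Vps13 3 above and 1 below, and Sec24AB none above and 3 below. In Vps13, 51.5% of 33 reads were edited at chr2R:3465597 (dm3, + strand, exon) with FMRP HyperTRIBE, against 37.5% of 40 and 38.5% of 52 with Hrp48 HyperTRIBE. At chr2R:3467805, the most 3′ site listed in Vps13, 35.0% of 40 reads were edited with FMRP HyperTRIBE, against 12.2% of 49 and 11.7% of 60 with Hrp48 HyperTRIBE. Vps35 held both orders. At chr2R:18075005 it had 35.0% of 40 reads with FMRP, against 12.1% of 33 and 11.1% of 63 with Hrp48 HyperTRIBE. At chr2R:18076826 it had 10.6% of 66, against 15.6% of 45 and 23.9% of 71. The order of the listed values thus differed between sites of the same gene. This rests on 1 FMRP library and was not tested against counting error.

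Position along the gene was given as genomic distance to the gene's most 3′ listed site, introns included, a measure added after the data were seen. Sec24AB had a median distance of 2034 bases with FMRP HyperTRIBE and 551 with Hrp48 HyperTRIBE, taking sites in both of its libraries. Rme-8 had 4147 and 2470, and Vps35 1963 and 96. The median was farther with FMRP in 18 of 28 traffic genes with both kinds of site (64.3%), against a background of 59.5%. Among genes with at least 5 FMRP and 3 Hrp48 HyperTRIBE sites it was farther in 3 of 5 traffic genes (60%), against 76.6% of other genes. Of these 5, Sec8 (2193 and 2241) and Vps13 (1921 and 2208) had the other order. Chc (1654 and 1764) did too, but with only 2 Hrp48 HyperTRIBE sites it was not among the 5. Of the FMRP sites in traffic genes, 39.1% (30.5 to 48.4%) had another within 100 bases, against 23.3% for all other genes. Median gaps were 327 and 387 bases. Traffic genes also had more FMRP sites per listed gene, 3.55 against 2.41, and Rme-8 alone held 22 of the 110. The part of site number in this spacing was not tested, and the interval treats sites as independent.

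**Figure D5:**
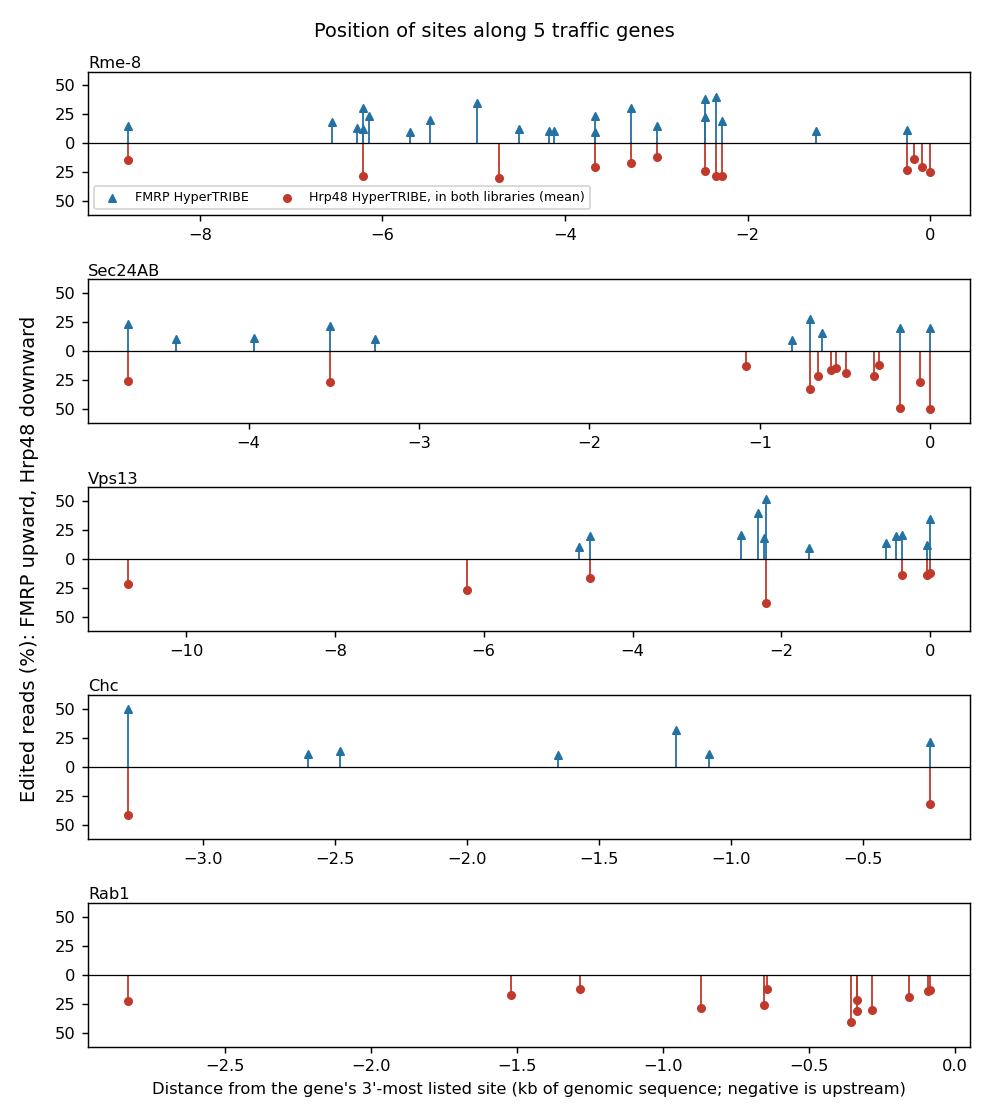
Editing at each site (vertical axis, percent of reads) along Rme-8, Sec24AB, Vps13, Chc and Rab1, by distance from the gene's most 3′ listed site (horizontal axis, kb of genomic sequence). FMRP HyperTRIBE sites point upward and sites listed in both Hrp48 HyperTRIBE libraries point downward, at their mean; the Sec24AB sites of Hrp48 HyperTRIBE gather near the 3′ end, the FMRP sites of Rme-8 run along the gene, and Rab1 has no FMRP site.

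The deaminase alone listed 8 traffic gene sites, all in its replicate 2, in 5 of 74 genes (6.76%), against a background of 5.54%. They were 3 in Vps13, 2 in Sec23 and 1 each in Rme-8, alphaCOP and shi. None of the 8 was listed in a Hrp48 HyperTRIBE or Hrp48 TRIBE library, and 1, at chr2R:3467216 in Vps13, was listed with FMRP HyperTRIBE, with 13.5% of 37 reads against 15.4% of 26 with the deaminase alone. The upper limit of the Wilson interval for 0 of 8 is 32.4%. Among all other genes, 42.8% of the deaminase-alone sites were listed in a Hrp48 HyperTRIBE library. The most edited of the 8 lay at chr3R:1476073 (dm3, + strand, exon) in Sec23, with 20 of 56 reads (35.7%), between Hrp48 HyperTRIBE sites at chr3R:1475919 and chr3R:1476623.

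A list of 116 other genes of the same routes, such as adaptors, tethers and cargo receptors, had 88 in the files. More sites in each Hrp48 HyperTRIBE library than in either Hrp48 TRIBE library were listed for 63 of them (71.6%, near the background of 67.6%), and fewer for 0. Entry by listing partly sets this count too. FMRP HyperTRIBE listed 40 (45.5%), against 38.7% of all genes. lt, the Vps41 subunit of HOPS, which the names used here leave out, had 25 and 24 sites with Hrp48 HyperTRIBE, 0 and 4 in Hrp48 TRIBE and 9 with FMRP HyperTRIBE. Golgin245, a Golgi tether, had 9 and 19, 0 and 0, and 2 in the same order of constructs. AP-2alpha, of the clathrin adaptor at the plasma membrane, had 10 and 9, 0 and 0, and 3.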

How the data were processed

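The deposited lists carry no column names; their values show the authors' read count of each base and the percent of reads edited at each site, and the edited share recomputed from the counts matched the percent in every line. The deposited score, 10 times the percent, was left aside. TopHat2 2.1.1, Picard 2.8.2 and the build dm3 are named in the submitters' processing notes, with no roles. The remaining samples of the series were not analysed here. All 74 gene names matched a current symbol. Sites were joined by position and strand. Named genes were those with a site in all 4 Hrp48 libraries, the 15 with most shared Hrp48 HyperTRIBE sites, the 5 with most FMRP sites, those listed with the deaminase alone, and the leading gene of each role; others named were chosen after their values were seen. Members and lists were chosen with earlier results of these data known. limma 3.58.1 (R 4.3.3), tested on simulated data with modest power for single sites, used the 4 Hrp48 libraries without a replicate block; the rest used Python 3.11.15, pandas 2.3.3, scipy 1.17.1 and matplotlib 3.10.9. The alternatives tried were read and editing minimums, pseudocount 1, read weights, other side assignments and leaving out each library.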

Additional observations from a re-analysis of the deposited data

How the results depend on the processing

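The 2 calls among the 7 tested sites were also 2 with pseudocount 1, with read weights and with the replicate block; no paired origin is labelled, and deviations of same-numbered libraries had a correlation of -0.01 over 298 sites. They were 0 with at least 50 reads in every library, where 1 traffic gene site was left to test and 31 of 56 sites in all were called higher. They were 0 to 4 when 1 library was left out: 0 of 7 without either Hrp48 HyperTRIBE library, where 1 of 298 sites was called higher, and 4 of 7 without Hrp48 TRIBE replicate 1, where 171 of 298 were. Genes with more Hrp48 HyperTRIBE sites numbered 33 with at least 50 reads and 58 to 69 without 1 library, with no background share taken at these settings. The 13.1-fold difference in sites was 39.1 with at least 50 reads, 22.8 with at least 20% edited and 12.04 to 14.1 without 1 library. With these read and editing minimums Hrp48 TRIBE listed only 3 and 5, and 6 and 5, traffic gene sites. The difference of the sides, 1.59 sites per gene, was 2.098 without the exocyst, 2.03 with at least 50 reads and 1.44 to 1.75 in single libraries. Their difference in median editing, -2.49 points, was -0.42 with at least 50 reads and -3.18 to -1.79 in single libraries. The FMRP share of 51.8% was 66.4% when either Hrp48 HyperTRIBE library counted and 61.8% within 100 bases. The mean share of sites that recurred between replicates, 63.0% for Hrp48 HyperTRIBE and 26.1% for Hrp48 TRIBE, was 71.9% and 56.7% with at least 50 reads, and 86.8% and 63.3% with at least 20% edited, a choice made after seeing the data. For single sites, 51 alternative values kept their side of the threshold, 2 passed it, 4 lost it and none reversed. The causes were not tested. The listing minimum of 20 reads and 10% edited limits every count.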
